A study of Rattus norvegicus with 6 samples.

Results

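Expression of 10 genes of sugar transport and glucose synthesis was examined in the renal cortex of rats given tricresyl phosphate. The genes were taken from a list of glucose and fructose carriers and gluconeogenic enzymes, and their probes were found through the RefSeq accession that each array spot carries. The 10 genes, all of which matched, had 20 of the 61537 non-control probes on the array and make up 10 of the 31637 genes tested. The list did not use measured values, but it was drawn up with earlier results of these data known.

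The animals were male Sprague-Dawley rats of the stock Crl:CD(SD), bought at 5 weeks of age and kept on a basal diet. One group of 3 animals received corn oil for 4 weeks, and the other group of 3 received 200 mg/kg/day of tricresyl phosphate for the same time. Tricresyl phosphate is an aryl phosphate that serves as a plasticiser and lubricant additive. Cortical RNA of each animal was labelled with Cy3 and hybridised to its own 1-colour Agilent array, with no pooling. The route of dosing, the isomers in the compound, and the hour and feeding state at collection are not given in the sources used here.

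The proximal tubule reabsorbs nearly all filtered glucose. In its early segments the low-affinity sodium-glucose cotransporter SGLT2 carries glucose across the brush border, and in the late segment the high-affinity SGLT1 takes up what is left. Facilitative carriers of the GLUT family release the sugar to the blood. The same cells make glucose from lactate, glutamine and glycerol, which do not all pass through the same steps. Enzymes of these routes include pyruvate carboxylase, phosphoenolpyruvate carboxykinase, fructose-1,6-bisphosphatase and the glucose-6-phosphatase system, and hepatocytes use the same enzymes.

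The promoter of Pck1 is shown because this gene is a textbook case of control by cyclic AMP, which acts on it through the letters TTACGTCA, here in capitals. The sequence is from RefSeq, build GRCr8 (chr3:182348422-182348571, plus strand), and covers the 150 bases just before the annotated start, written 5′ to 3′.
Pck1: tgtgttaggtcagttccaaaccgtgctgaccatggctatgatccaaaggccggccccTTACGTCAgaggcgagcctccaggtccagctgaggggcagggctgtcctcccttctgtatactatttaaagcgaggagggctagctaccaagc

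The match lies from base −93 to base −86 before the start. Promoter windows around the start were matched for 9 of the 10 genes and searched on both strands. The 9 genes had 10 windows. TTACGTCA was present in 1 of these 10, that of Pck1, and in 0.807% of all 33469 promoter windows. It was searched for as the known element of Pck1, so its presence there was known beforehand. The related element TGACGTCA was in 0 of the 10 windows and in 1.83% of all windows. These matches describe letters and not binding.

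Markers of the tissue were looked at first. All 11 proximal tubule markers were well above background on all 6 arrays, among them the endocytic receptor gene Lrp2 and the phosphate carrier gene Slc34a1. This limit does not single out tubule cells, since the hepatocyte marker Alb and the leucocyte marker Cd3e also met it on all 6 arrays. All 20 probes of the 10 genes were also well above background on every array, so no gene was lost to the filter on dim probes and no difference is a bound. The arrays each had 41503 to 43823 probes above that limit and 0 saturated spots. Among other cells of the cortex, 7 collecting duct markers summed to linear levels of 211 to 258 with corn oil and 210 to 266 with tricresyl phosphate. For 6 leucocyte markers the sums were 34.3 to 36.2 and 33.8 to 53.8. Most of the leucocyte sum came from Cd74, with log2 levels of 5.03, 4.93 and 5.05 with corn oil and 5.66, 5.53 and 4.93 with tricresyl phosphate. Of the 6 leucocyte markers 4 had higher means with tricresyl phosphate and 2, Ptprc and Cd68, had lower ones. Corn oil replicate 1 lay alone on one slide and the other 5 arrays on a second slide.

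None of the 10 genes passed the test between the groups after adjustment, although Slc5a1 and Fbp1 had groups that did not overlap. Levels are log2 processed signals relative to the 75th percentile of the same array, and differences are tricresyl phosphate minus corn oil on this log2 scale. Each gene is given by its brightest probe unless stated, and brightness depends on the probe, so levels of different probes are not compared. With limma and Benjamini-Hochberg adjustment over the 31637 genes, 0 of the 10 passed an adjusted p of 0.05, where the background was 0% of all genes. At an unadjusted limma p under 0.05 there was 1 of the 10 genes, Slc5a1, against a background of 5.49% of all genes (3.86% lower and 1.63% higher with tricresyl phosphate), and the adjusted p-values of the 10 lay between 0.811 and 0.95.

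Probe by probe the picture was alike. Of the 20 probes 14 had lower and 6 had higher means with tricresyl phosphate, against 55.2% lower over the 43099 probes kept, and 0 passed the adjusted threshold. At an unadjusted limma p under 0.05 there were 2 of the 20 probes, 1 lower and 1 higher, against a background of 5.42% (3.39% lower and 2.04% higher). Groups did not overlap in 3 of the 20, 2 lower and 1 higher, against a background of 11.8% of probes (7.08% lower and 4.69% higher).

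**Figure D1:**
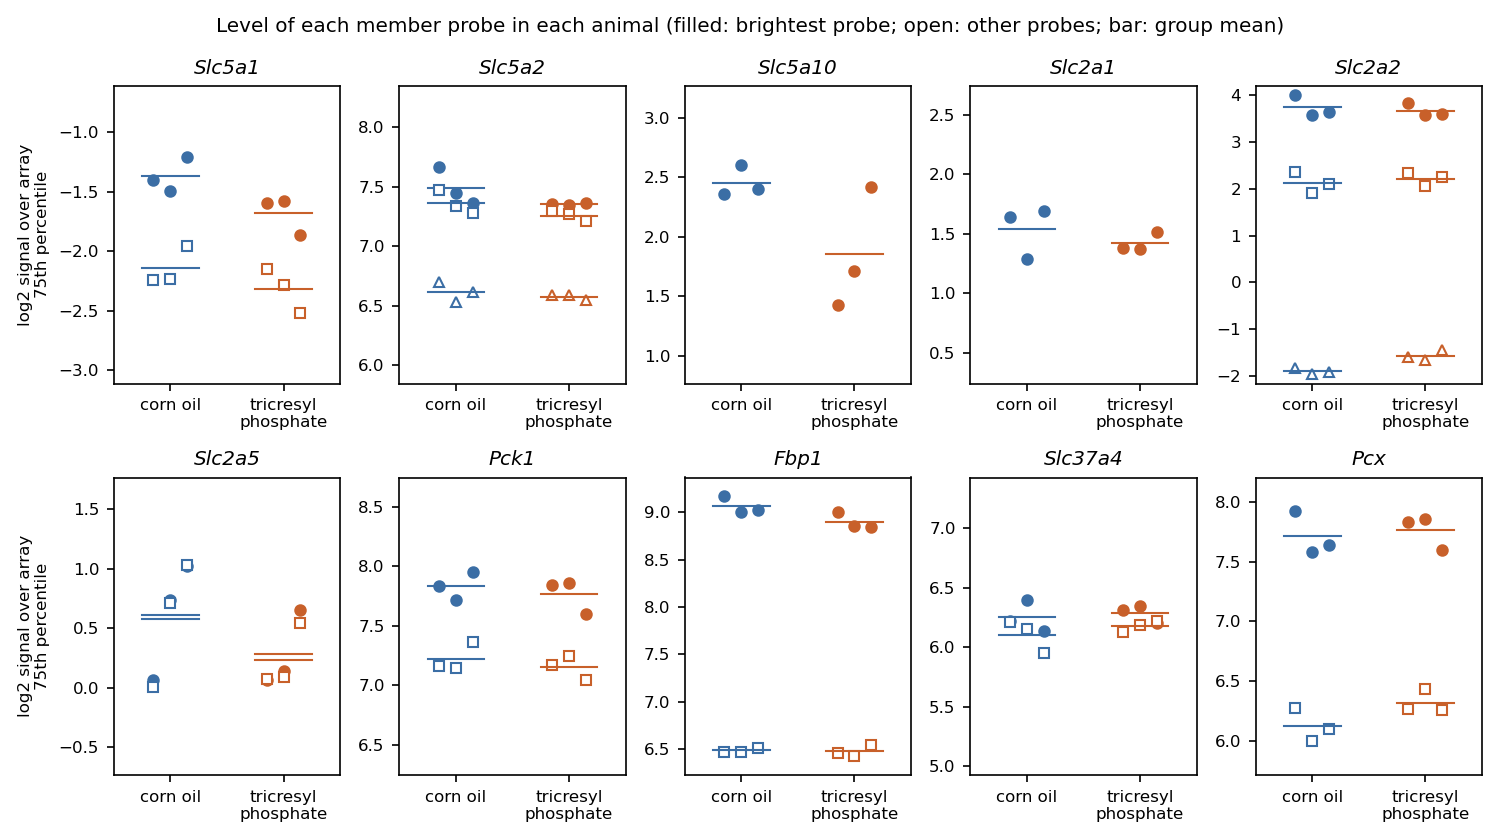
Log2 level relative to the array's 75th percentile (vertical axis) of all 20 probes in the 3 corn oil and the 3 tricresyl phosphate animals, from left to right replicates 1 to 3, with 1 panel per gene; filled points are the brightest probe of the gene, open points the others, and bars the group means. Of the filled points, those of Slc5a1 and Fbp1 do not overlap between groups, and Slc5a10 spreads from 1.43 to 2.42 among the tricresyl phosphate animals.

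Among the sodium-coupled carriers, Slc5a1, which encodes SGLT1, had levels of −1.40, −1.49 and −1.21 with corn oil and −1.60, −1.58 and −1.86 with tricresyl phosphate. All 3 treated animals lay below all 3 controls. The means were −1.37 ± 0.15 (SD, n = 3) and −1.68 ± 0.16 (SD, n = 3). The difference was −0.31 ± 0.13 (SE), or 0.807-fold with a 95% interval of 0.653 to 0.996, and the adjusted limma p was 0.811. Its second probe gave −0.17 ± 0.14 (SE), and there the groups overlapped, with treated replicate 1 at −2.15 above the controls at −2.24 and −2.23. On the shared slide alone the difference of the brighter probe was −0.33.

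Slc5a2, which encodes SGLT2, the main renal glucose carrier and the target of the gliflozin drugs, had levels of 7.66, 7.44 and 7.36 with corn oil. With tricresyl phosphate it stood at 7.36, 7.35 and 7.36. The treated animals, with an SD of 0.0095 (n = 3), lay close to the lowest control, and the controls had an SD of 0.16 (n = 3). The difference of −0.13 ± 0.10 (SE) corresponded to 0.912-fold, with a 95% interval of 0.765 to 1.09 (adjusted limma p 0.820). Its other 2 probes gave −0.11 ± 0.09 (SE) and −0.038 ± 0.085 (SE). The highest value belonged to corn oil replicate 1, the animal on the other slide, and without it the difference was −0.046. Under quantile, normexp and cyclic loess normalization the difference of all 6 animals was −0.038, −0.031 and −0.00061.

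Slc5a10 encodes SGLT5, a brush border carrier of fructose and mannose, and had the largest difference in size among the 10 genes. Its levels were 2.36, 2.61 and 2.40 with corn oil and 1.43, 1.71 and 2.42 with tricresyl phosphate. Treated replicates 1 and 2 lay below every control, whereas treated replicate 3 lay inside the range of the controls. The means were 2.46 ± 0.13 (SD, n = 3) and 1.85 ± 0.51 (SD, n = 3), and the difference of −0.60 ± 0.26 (SE) corresponded to 0.660-fold with a 95% interval of 0.427 to 1.02. The adjusted limma p was 0.811. Without treated replicate 3 the difference was −0.88, and without treated replicate 1 it was −0.39. The spread of Slc5a10 within groups exceeded that of 85.0% of all genes tested. This gene has 1 probe on the array, so no second probe could be set beside it.

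Of the facilitative carriers, Slc2a1, which encodes the widely expressed glucose carrier GLUT1, had levels of 1.64, 1.29 and 1.69 with corn oil and 1.38, 1.37 and 1.51 with tricresyl phosphate. The treated animals all lay inside the range of the controls. Its difference was −0.12 ± 0.13 (SE), or 0.921-fold with a 95% interval of 0.739 to 1.15. Of 5 red cell markers measured, 4 had lower means with tricresyl phosphate and 3 had groups that did not overlap, against a background of 7.95% of all genes for the lower direction. The other, Slc4a1, was higher by 0.079 and also counts among the 7 collecting duct markers. The summed linear level of the 5 ran from 537 to 602 with corn oil and from 432 to 544 with tricresyl phosphate. Of these red cell markers 0 passed the adjusted threshold. Their part in the values of the 10 genes was not tested.

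Slc2a2 encodes GLUT2, the basolateral glucose carrier of the early proximal tubule, and its 3 probes did not give 1 answer. The brightest probe had levels of 3.98, 3.56 and 3.63 with corn oil and 3.81, 3.57 and 3.58 with tricresyl phosphate. Its difference was −0.069 ± 0.14 (SE), or 0.954-fold with a 95% interval of 0.748 to 1.22, and it lay between −0.033 and −0.0029 under the other normalizations. The second probe differed by 0.096 ± 0.15 (SE). The dimmest, A_44_P488355, stood at −1.82, −1.95 and −1.91 with corn oil and at −1.59, −1.65 and −1.43 with tricresyl phosphate. All 3 treated animals lay above all 3 controls on this probe, with a difference of 0.34 ± 0.096 (SE), an unadjusted p of 0.0123 and an adjusted limma p of 0.816 over all 43099 kept probes. It was the only probe of the 20 whose groups stood apart in the higher direction, where the background is 4.69% of all kept probes. All 3 probes carry the accession NM_012879.

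The signal of the dimmest Slc2a2 probe relative to the brightest one was therefore followed within each array, a comparison chosen after the values were seen. This log2 ratio was −5.80, −5.51 and −5.54 with corn oil and −5.40, −5.22 and −5.01 with tricresyl phosphate, without overlap. The difference of 0.41 ± 0.13 (SE) had an adjusted limma p of 0.786 over 9281 such ratios between probes of 1 gene. Under quantile, cyclic loess and normexp normalization the difference was 0.32, 0.34 and 0.31. Each further probe of the 8 genes with several was set against the brightest in the same way. Groups did not overlap in 3 of these 10 ratios, 2 of Slc2a2 and 1 of Slc5a1, against a background of 11.2%. The 2 of Slc2a2 share the brightest probe, so they are not separate observations. Of the 10 ratios 8 were higher with tricresyl phosphate, against 67.6% of all such ratios, and 0 of the 10 passed. At an unadjusted limma p under 0.05 there was 1 of the 10, that of the dimmest Slc2a2 probe, against 5.21% of all ratios.

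Slc2a5, which encodes the fructose carrier GLUT5, a late proximal tubule protein in the rat, varied more between animals than between groups. Levels were 0.066, 0.74 and 1.02 with corn oil and 0.063, 0.14 and 0.65 with tricresyl phosphate. Corn oil replicate 1 sat with the lower treated animals, and treated replicate 3 sat near corn oil replicate 2. The second probe gave the same picture, with 0.71 and 1.03 in corn oil replicates 2 and 3, 0.54 in treated replicate 3, and the other 3 animals between 0.0032 and 0.086. The difference was −0.33 ± 0.28 (SE), or 0.798-fold with a 95% interval of 0.495 to 1.29 (adjusted limma p 0.834). On the shared slide, without corn oil replicate 1, it was −0.60. The within-group spread of Slc2a5 exceeded that of 87.9% of all genes.

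**Figure D2:**
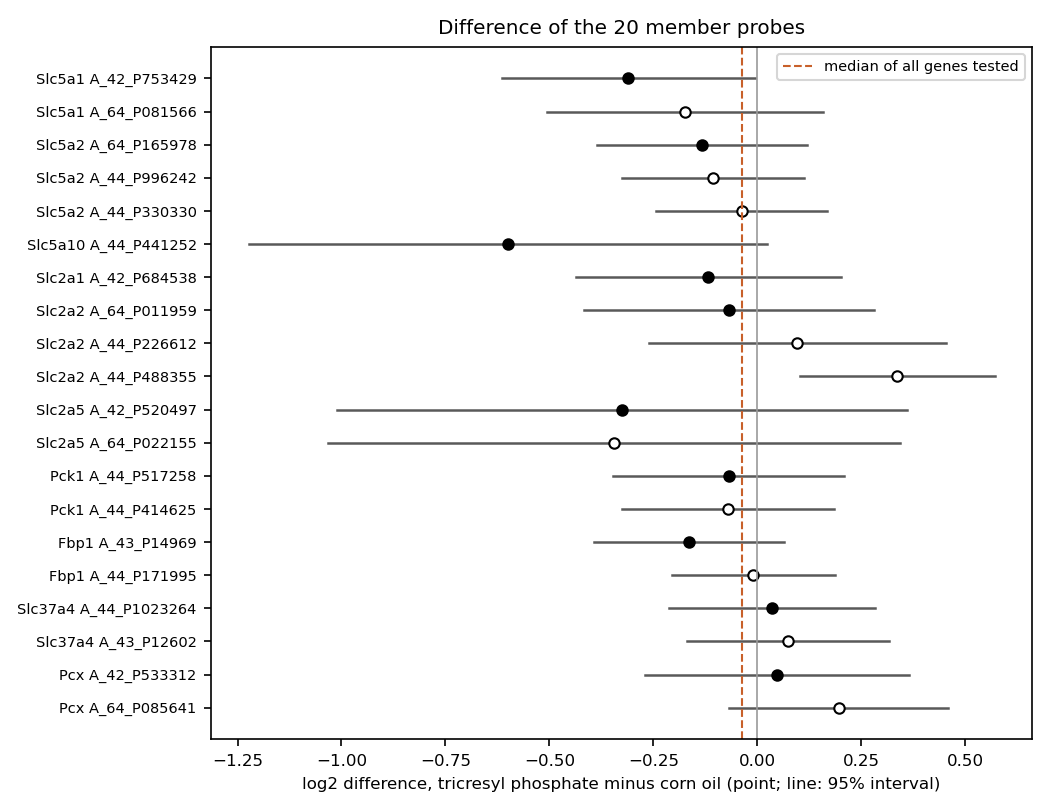
Log2 difference, tricresyl phosphate minus corn oil (horizontal axis), of each of the 20 probes with its 95% interval from limma; filled points are the brightest probe of each gene, and the dashed line is the median over all genes tested, −0.038. Intervals of 18 probes cross 0, and the others are the brightest probe of Slc5a1 and the dimmest of Slc2a2.

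Differences of the gluconeogenic enzymes and their carrier were all under 0.2 in size on the brightest probes. Pck1, the cytosolic phosphoenolpyruvate carboxykinase that turns oxaloacetate into phosphoenolpyruvate, had levels of 7.84, 7.72 and 7.95 with corn oil and 7.85, 7.86 and 7.60 with tricresyl phosphate. The groups overlapped, and treated replicate 3 was the lowest animal. The difference was −0.069 ± 0.11 (SE), or 0.953-fold with a 95% interval of 0.786 to 1.16, and the second probe gave −0.071 ± 0.10 (SE). With quantile, cyclic loess or normexp normalization Pck1 was instead higher, by 0.063 to 0.070.

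Fbp1, the fructose-1,6-bisphosphatase of liver and kidney, had levels of 9.17, 9.002 and 9.03 with corn oil and 9.001, 8.86 and 8.85 with tricresyl phosphate. The groups stood apart by a hair, with corn oil replicate 2 just above treated replicate 1. The difference was −0.17 ± 0.094 (SE), or 0.892-fold with a 95% interval of 0.761 to 1.05 (adjusted limma p 0.811). The second probe, at 6.47, 6.47 and 6.51 with corn oil and 6.45, 6.42 and 6.54 with tricresyl phosphate, gave −0.0097 ± 0.081 (SE). Under quantile and cyclic loess normalization the brighter probe differed by −0.024 and −0.0015. The summed linear level of the 11 proximal tubule markers also ran lower in treated replicates 2 and 3, the 2 lowest animals for Fbp1, at 1649 and 1749 against 1941 to 2010 in the controls and 1991 in treated replicate 1. The mean log2 level of the same markers was 6.21 and 6.29 in treated replicates 2 and 3, against 6.28 to 6.44 in the controls. In treated replicate 1 it was 6.29. Whether the marker levels bear on Fbp1 was not tested, and in whole cortex fewer tubule cells and less RNA per cell cannot be told apart.

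Slc37a4 encodes the carrier that brings glucose 6-phosphate into the endoplasmic reticulum for its last hydrolysis. Its levels were 6.22, 6.40 and 6.14 with corn oil and 6.31, 6.35 and 6.21 with tricresyl phosphate. The treated animals lay inside the range of the controls, and the difference of 0.035 ± 0.10 (SE) had a 95% interval of 0.862-fold to 1.22-fold. Its second probe gave 0.074 ± 0.10 (SE). Under quantile, cyclic loess and normexp normalization the brighter probe differed by 0.148, 0.145 and 0.130, at adjusted limma p-values of 0.844 to 0.862.

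Pcx, pyruvate carboxylase, which carries the symbol Pc in RefSeq, makes oxaloacetate in the mitochondrion and opens the route from lactate. Its levels were 7.92, 7.59 and 7.65 with corn oil and 7.84, 7.86 and 7.60 with tricresyl phosphate. The difference was 0.047 ± 0.13 (SE), or 1.03-fold with a 95% interval of 0.828 to 1.29. It was 0.154 under quantile, 0.186 under cyclic loess and 0.172 under normexp normalization, with adjusted limma p-values of 0.831 to 0.856. The second probe differed by 0.196 ± 0.11 (SE), with treated replicate 2 at 6.43 above all controls and the other treated animals at 6.26 beside corn oil replicate 1 at 6.27. This probe differed by 0.304 to 0.307 under those normalizations, with unadjusted p-values of 0.0128 to 0.0258 and adjusted limma p-values of 0.838 to 0.849.

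Several of these enzymes are also liver genes, and hepatocyte markers differed between animals. Of 10 hepatocyte markers 9 were measured, Cps1 was not well above background on enough arrays, and the summed linear level of the 9 ran from 9.89 to 20.6 with corn oil and from 11.7 to 16.9 with tricresyl phosphate. The mean log2 level of the same 9 ran from −2.52 to 0.19 with corn oil and from −1.50 to −0.36 with tricresyl phosphate. Both the sum and this mean were highest in corn oil replicate 2 and treated replicate 3. Apoc3, which gave the largest part of the sum, went against this and had its lowest levels, 2.78 and 2.74, in these 2 animals. In these 2 animals Pcx stood at 7.59 and 7.60 and Pck1 at 7.72 and 7.60, the lowest of each group. Slc37a4 stood at 6.40, the highest of the 6 animals, in the first and at 6.21, the lowest treated animal, in the second. The part of hepatocyte RNA in these values was not tested. With both animals left out, 0 genes passed, the median of the 10 differences was −0.17 and that of Slc5a10 was −0.81 at an adjusted limma p of 0.830.

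As a set, 8 of the 10 genes had lower means with tricresyl phosphate and 2 had higher ones, against 59.2% lower over all genes. Their median difference was −0.13, beside −0.038 over all genes tested. Groups did not overlap in 2 of the 10, Slc5a1 and Fbp1, both lower, against a background of 11.8% of all genes (7.95% lower and 3.85% higher). The highest animal was a control in 10 of the 10 genes, against 60% of all genes. It was corn oil replicate 1, alone on its slide, in 4 of them, replicate 2 in 2 and replicate 3 in 4. The lowest was a treated animal in 6 of the 10, against 56% of all genes. Of these genes 7 lie in the brightest of 5 equal classes of all genes tested, where the median difference was −0.072 and 76.0% of genes were lower. Shares of highest and lowest animals were not counted by class. The median of the 10 was −0.031 under quantile, −0.032 under normexp and −0.0048 under cyclic loess normalization, with 7 of the 10 lower under each.

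**Figure D3:**
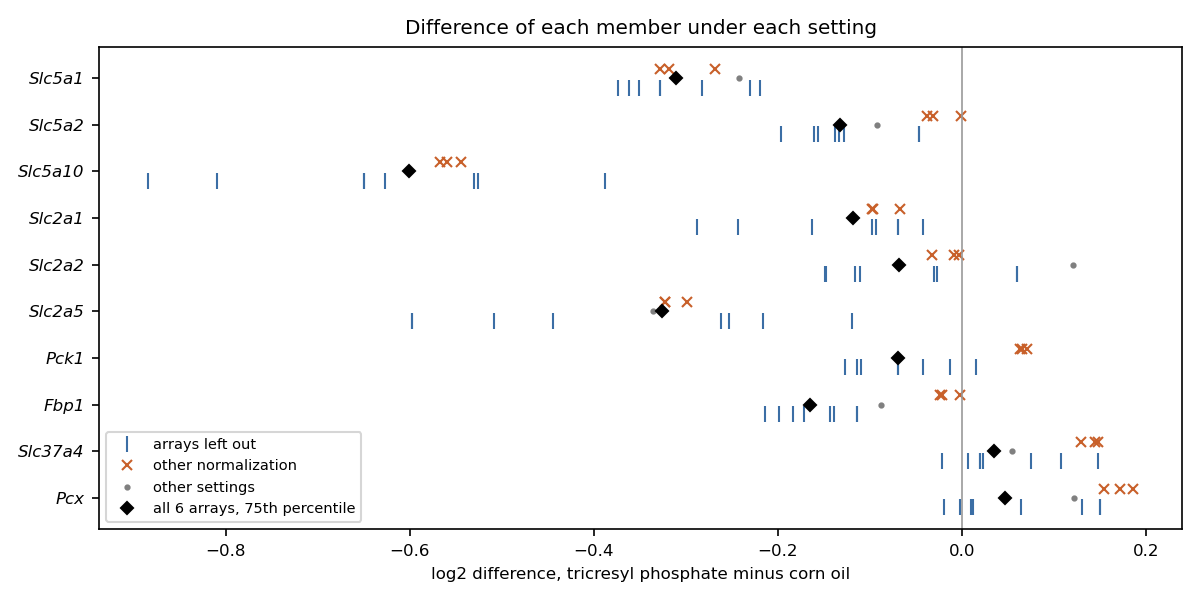
Log2 difference of each of the 10 genes (horizontal axis) with all 6 arrays at the 75th percentile scaling (diamonds), under other normalizations (crosses), with arrays left out or the slide as a block (ticks) and under the other settings (dots). Slc5a1, Slc5a2, Slc5a10, Slc2a1, Slc2a5 and Fbp1 stay below 0 under every setting drawn, Slc5a2 and Fbp1 barely so at −0.00061 and −0.0015. Pck1, Slc2a2, Slc37a4 and Pcx have settings on both sides.

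Genes around these 10 did not pass the threshold either. Of 13 other sugar and polyol carriers or their partners, 10 were tested, 5 higher and 5 lower, with a median difference of −0.0078. Pdzk1ip1, which encodes MAP17, the small membrane protein that SGLT2 needs for full activity, had levels of 5.63, 5.69 and 5.32 with corn oil and 5.74, 5.97 and 5.89 with tricresyl phosphate. All 3 treated animals lay above the controls, which gave 0.32 ± 0.13 (SE) at an adjusted limma p of 0.811. Slc2a6, a GLUT family member of lysosomes, differed by 0.30 ± 0.13 (SE), and its other probe by 0.57. Groups stood apart in the higher direction in 2 of these 10 carriers or partners and in the lower direction in 0, against 3.85% and 7.95% of all genes. Pdzk1ip1 and Slc2a6 had the smallest p of their list, and naming genes by p favours groups standing apart.

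Of 19 other genes of the gluconeogenic route, all tested, 15 were lower and 4 higher, with a median of −0.066. Over all genes tested 59.2% were lower, with a median of −0.038. In the brightest of 5 equal classes of genes 76.0% were lower, with a median of −0.072. G6pc1, the catalytic subunit that releases free glucose, had levels of 7.69, 7.46 and 7.57 with corn oil and 7.38, 7.74 and 7.44 with tricresyl phosphate. Its difference was −0.054 ± 0.13 (SE), and it was above 0 with quantile, cyclic loess or normexp normalization and on its other probe. Pgk1, phosphoglycerate kinase, stood −0.21 ± 0.089 (SE) apart, and −0.04 on another probe. Under quantile, cyclic loess and normexp normalization the difference of Pgk1 was −0.087, −0.086 and −0.084. Fbp2, the muscle form of fructose-1,6-bisphosphatase, stood at 1.1999, 0.25 and 0.54 with corn oil and at 0.24, −0.020 and 0.13 with tricresyl phosphate, a difference of −0.55 ± 0.25 (SE), which was −0.28 without corn oil replicate 1.

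Of 19 genes of glycolysis and pyruvate oxidation 9 were higher and 10 lower. Pfkfb4, an enzyme that sets the level of fructose 2,6-bisphosphate, had levels of −0.74, −0.94 and −0.69 with corn oil and −0.23, −0.10 and −0.64 with tricresyl phosphate, a difference of 0.47 ± 0.16 (SE). Pdk2, a kinase that turns pyruvate dehydrogenase off, differed by 0.195 ± 0.089 (SE). All its treated animals lay above the controls. Groups stood apart in the higher direction in 3 of the 19 genes and in the lower direction in 1, against 3.85% and 7.95% of all genes. Pfkfb4 and Pdk2 are named for the smallest p of their list, a choice that favours groups standing apart. Adjusted limma p-values of both were 0.811.

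Of 4 genes of fructose and sorbitol metabolism 3 were higher and 1 was lower. The lower gene was Khk, ketohexokinase, which phosphorylates fructose after uptake, at −0.12 ± 0.090 (SE), and Sord, sorbitol dehydrogenase, differed by 0.039 ± 0.087 (SE). The sign of Khk turned under quantile and cyclic loess normalization. Of 16 regulators 10 were higher and 6 lower. Hnf4a, a nuclear receptor of the proximal tubule, differed by −0.030 ± 0.17 (SE), with the sign turned under the same 3 normalizations as G6pc1. Irs1, an adaptor of the insulin receptor, had a difference of 0.31 ± 0.17 (SE) on one probe and −0.44 on the other.

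**Figure D4:**
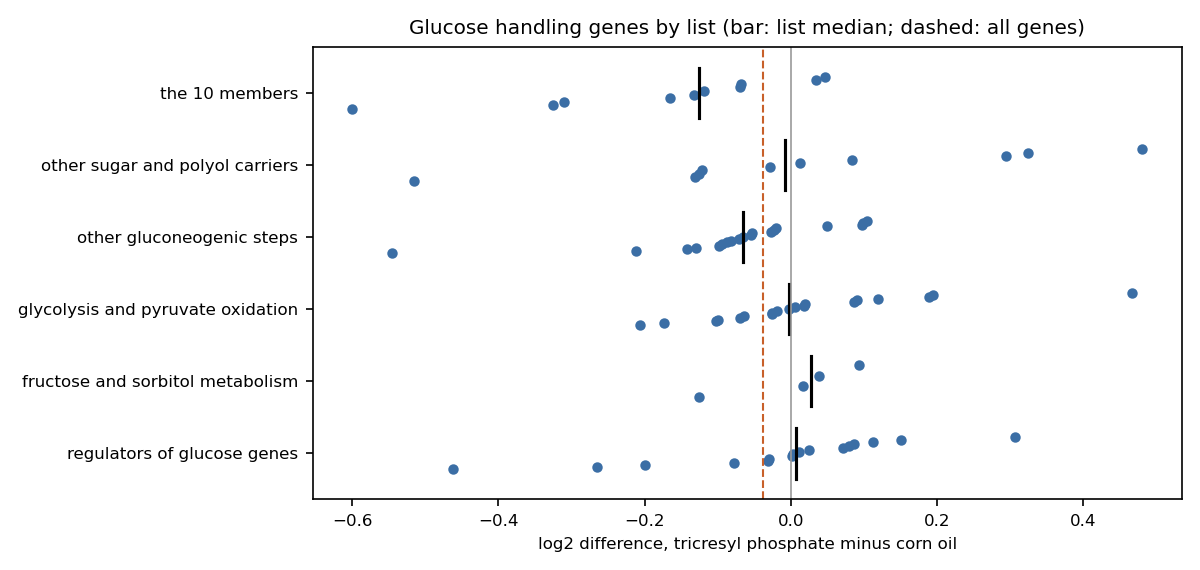
Log2 difference, tricresyl phosphate minus corn oil (horizontal axis), of the 10 genes and of 5 further lists of glucose handling genes, 1 point per gene, with black bars at the list medians and a dashed line at the median over all genes. List medians lie between −0.13, for the 10 genes, and 0.028, for fructose and sorbitol metabolism.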

How the data were processed

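Spots were quantified by the authors in Agilent Feature Extraction (10.7 in the submitters' processing notes; per the file headers, 10.7.1.1). What they deposited is linear intensity: a background-subtracted processed signal per spot, the median spot and background signals, and a value table. The table's columns, with medians from 0.1094 to 0.1152, are uncentred processed signals divided by 1 number per array (coefficient of variation of the ratio at most 0.00919% over the probes above the median). Flag columns of the deposited files mark spots well above background, as other values of 0 or 1.

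From these, log2 processed signal minus the array's 75th percentile was computed, 77 outlier spots were set missing, and probes well above background on at least 3 arrays were kept (43099 of 61537). The brightest kept probe stood for its gene. Symbols came from RefSeq GRCr8 by unversioned accession (28206 probes with 1, 0 with several, 33331 with none). The array design is annotated on another build, so coordinates are given for the RefSeq promoter windows alone. Groups were compared with limma 3.58.1 (R 4.3.3), two-sided, after a test on simulated data. The number of arrays limits the precision. Ratios between probes of 1 gene were fitted in the same way.

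The 10 genes, the lists, the tests and all alternatives but 1 were written down with earlier results of these data known. Named beside the 10 genes are the 2 with the smallest p of each further list and G6pc1, Khk, Pdzk1ip1 and Hnf4a, except genes that are not reported here. Normexp, with an offset of 50, used the median spot signal in place of the mean.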

Additional observations from a re-analysis of the deposited data

How the results depend on the processing

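In 17 other settings, 16 listed beforehand and 1 added after seeing the data, 0 of the 10 genes passed. Slc5a1, Slc5a2, Slc5a10, Slc2a1, Slc2a5 and Fbp1 kept their sign in all 17, with Slc5a2 and Fbp1 at −0.00061 and −0.0015 under cyclic loess. With 3 animals a group, the 95% intervals of 9 of the 10 genes include 0.

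In all, 2 genes and 2 probes passed under normexp with quantile normalization and under intensity trend with robust variance, none of them among the 10. Leaving out 1 animal at a time gave 0 to 1 genes and 0 to 1 probes. Signs turned as follows, and the cause was not tested. Under quantile normalization Pck1 was at 0.066 (second probe 0.058), Khk 0.012, G6pc1 0.046, Hnf4a 0.049, the dimmest Slc5a2 probe 0.084 and the second Fbp1 probe 0.109. Under cyclic loess they were Pck1 0.070 (0.057), Khk 0.013, G6pc1 0.081, Hnf4a 0.035, further Slc5a2 probes 0.023 and 0.078, and Fbp1 0.104. Under normexp they were Pck1 0.063 (0.043), G6pc1 0.052, Hnf4a 0.050, Slc5a2 probes 0.0067 and 0.103, and Fbp1 0.108. With the mean of all probes Slc2a2 was at 0.12, Irs1 −0.067 and G6pc1 0.0072. With the slide as a block, which equals leaving out corn oil replicate 1, Slc2a2 was at 0.060, G6pc1 0.0069, Hnf4a 0.058 and the dimmest Slc5a2 probe 0.0034. With corn oil replicate 2 and treated replicate 3 both left out the middle Slc2a2 probe was at −0.033. Leaving out 1 animal at a time gave ranges that crossed 0 for Slc2a2 (−0.15 to 0.060; middle probe −0.013 to 0.22), Pck1 (−0.13 to 0.016), Slc37a4 (−0.022 to 0.11; second probe −0.0018 to 0.13), Pcx (−0.019 to 0.15), Sord (−0.0051 to 0.076), G6pc1 (−0.16 to 0.016), Hnf4a (−0.19 to 0.058), the dimmest Slc5a2 probe (−0.080 to 0.0034) and the second Fbp1 probe (−0.045 to 0.015). The median of the 10 genes ran from −0.18 to −0.069.

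With the replicate number as a replicate block 0 genes and 0 probes passed, Slc5a10 was at −0.60 with an adjusted limma p of 0.753, and 1927 genes were at an unadjusted p under 0.05, against 1737 without it. The labels give no pairing of the animals. Deviations from the group means had correlations of 0.086, −0.051 and −0.044 between equally numbered animals. Between unequally numbered animals they ran from −0.078 to 0.12. Deviations from the means of such small groups cannot decide whether animals were paired.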
